A study of Mus musculus with 12 samples.

Results

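Hmgn1-/-Hmgn2-/- mouse embryonic stem cells (mESCs) were compared with Hmgn1-/- mESCs, gene by gene, in 6 of the 12 RNA-seq libraries of the study. The 6 libraries were taken by genotype label, replicates 1 to 3 of each line. The parent line, v6.5, is labelled male and was grown on gelatin. RNA was enriched for poly-A transcripts and sequenced as paired reads, and the other 6 libraries came from WT and Hmgn2-/- mESCs. Both lines carry a homozygous deletion of 1 base in exon 3 of Hmgn1, and the double knockout also carries a homozygous insertion of 1 base in exon 4 of Hmgn2. Each line was expanded from a single cell after editing. The Hmgn1-/- line was derived from WT cells, whereas the double knockout was derived from the Hmgn2-/- line by a further edit of Hmgn1. The 2 lines therefore differ in the Hmgn2 edit and in the cell from which each was grown, and these differences cannot be told apart in this comparison.

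The Hmgn1-/- libraries held 25953244, 21059862 and 21993042 counts over 23412 genes. Those of the double knockout held 31005479, 22151507 and 26410485 counts. At these depths a value of 3 counts corresponded to between 0.0961 and 0.143 CPM (each count as a share of its library's total, scaled by the TMM method over all 12 libraries), which is taken below as the lower limit of measurement. Limits and intervals of this kind cover counting error alone. The study calls the libraries of a genotype biological replicates, but each edited genotype is a single line grown from 1 cell, WT is the parent line, and the p-values below measure the spread between these samples. No pair of libraries within a genotype agreed within sampling noise. The widest gaps were between Hmgn2-/- replicate 3 and replicates 1 and 2 of that line (chi-square per degree of freedom of 36.4 and 20.6). For all other pairs it lay between 3.40 and 12.1.

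HMGN1 and HMGN2 are non-histone proteins that attach to nucleosomes and can loosen how chromatin is packed. They share a nucleosome-binding domain and are often described as able to stand in for each other. Mouse ESCs self-renew under the control of factors such as OCT4, SOX2 and NANOG, and in culture a minor share of cells can express genes of the primitive endoderm, the extraembryonic layer that arises beside the epiblast, or genes of the 2-cell embryo.

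The guides used for editing are shown because they place both edits in the genome (GRCm38, the same assembly as mm10). In each sequence the capitals mark the bases shared by the guide and the exon, each written 5′ to 3′ on its own strand.
Hmgn1 guide: acttacGGCCGACAGCCTCG
Hmgn1 exon 3: cccaagcgccgctccgCGAGGCTGTCGGCC
Hmgn2 guide: aggctggcttacCTTCGCAG
Hmgn2 exon 4: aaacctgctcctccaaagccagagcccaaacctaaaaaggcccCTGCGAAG
Exon 3 of the Hmgn1 transcript model lies at chr16:96127311-96127340 on the minus strand, is 30 bases long and is wholly coding. It matched the reverse complement of 14 bases of the guide at its 3′ end, and the other 6 bases of the guide lie beyond the exon. Exon 4 of Hmgn2 lies at chr4:133966429-133966479 on the minus strand, is 51 bases long and is also wholly coding. It matched 8 bases of its guide, with the other 12 beyond the exon, and the bases beyond each exon were not read here.

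Hmgn2 transcript, whose edit separates the 2 lines by label, was measured at 106, 113 and 109 CPM in the Hmgn1-/- libraries and at 53.9, 50.5 and 54.5 CPM in those of the double knockout. All 3 double knockout libraries were below all 3 Hmgn1-/- libraries, and the frameshift allele still gave transcript. The log2 fold change (log2FC, double knockout over Hmgn1-/-) was −1.05 ± 0.0606 (SE, n = 3 per line; edgeR adjusted p = 6.74e-08). In the other lines the mean level was 126 CPM in WT and 53.1 CPM in Hmgn2-/- mESCs, so the double knockout sat at the level of its parent.

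Hmgn1 transcript, edited in both lines, was 138, 139 and 142 CPM in Hmgn1-/- and 21.6, 19.9 and 21.5 CPM in the double knockout, against a mean of 622 CPM in WT. Both lines were thus below WT, and the double knockout was lower than Hmgn1-/- in every library. The log2FC was −2.73 ± 0.0633 (edgeR adjusted p = 7.83e-13). This was the largest fall among well-counted genes after Grb10, and why lines with an edit at the same exon differ in transcript level was not tested. Of the other 7 tested members of the HMG list, 0 were called by edgeR or by DESeq2, and 1 had an unadjusted p under 0.05. Hmgb1, for example, was between 378 and 423 CPM in the 6 libraries, and the log2FC of the remaining tested members lay between −0.05 for Hmgb3 and 0.35 for Hmgn3. The signs of Hmgn5, Hmgb1, Hmgb2, Hmgb3 and Hmga1 changed under other settings, as given with the processing alternatives.

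The mESC label was checked against its markers. Pou5f1 was measured at 1789, 1798 and 2027 CPM in Hmgn1-/- and at 1680, 1881 and 1955 CPM in the double knockout. Sox2 was 576, 594 and 583 CPM against 505, 499 and 534 CPM, and Nanog was 205, 200 and 214 CPM against 174, 195 and 196 CPM. The ESC markers were therefore abundant in all 6 libraries. Of the 17 naive pluripotency genes, all tested, 0 passed both limits used here to define differentially expressed genes (DEGs: adjusted p under 0.01 and log2FC of at least 1 in size) by edgeR or by DESeq2, and 9 (52.9%) had an unadjusted p under 0.05, beside 9.53% of all genes tested. Their median log2FC was −0.08 beside −0.00 over all genes tested, and 11 of the 17 were negative. By edgeR, 1 of them, Dppa3, a maternal factor, was lower at the adjusted p alone. Its levels were 23, 22.7 and 29.3 CPM in Hmgn1-/- and 14.1, 13.7 and 13.4 CPM in the double knockout, with no overlap (log2FC −0.86 ± 0.106, edgeR adjusted p = 0.000168). The male label was less well matched: 4 Y-linked genes summed to 0.307, 0.430 and 0.322 CPM in Hmgn1-/- and to 0.897, 0.677 and 0.229 CPM in the double knockout, against 5.78, 4.53 and 6.06 CPM in WT. Kdm5d had no count in any of the 6 libraries, and Eif2s3y was the most abundant of the 4.

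Of 13710 genes with enough counts to test, 70 were DEGs by the quasi-likelihood test of edgeR, or 0.511% of those tested. Of these, 48 (0.350%) were higher in the double knockout and 22 (0.160%) were lower. All 70 had groups that did not overlap, as did 2072 of the tested genes in all (15.1%). At the adjusted p alone 150 genes passed, and 1306 had an unadjusted p under 0.05 (9.53%). The 22 lower DEGs comprised 13 genes of a stretch of chromosome 9, 2 of chromosome 11, 3 imprinted genes, the 2 edited genes and 2 others. The 48 higher DEGs included 16 of the endoderm lists, 5 of the 2-cell-like list, 2 imprinted genes and 5 genes placed on the X chromosome. They also included 2 of another stretch of chromosome 11, among them C1qtnf1, the gene with the largest log2FC of the 48. Of the 70, 47 were called under each of 14 other settings that tested them, and 23 lost the call in at least 1.

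**Figure D1:**
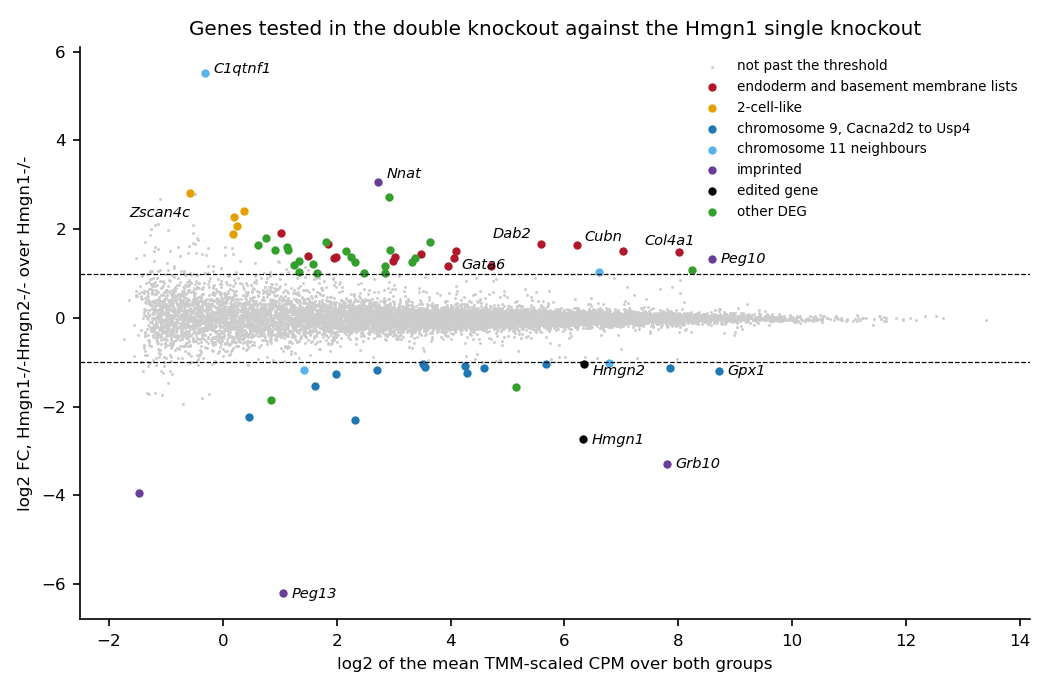
Each point is a tested gene, with the log2 of its mean TMM-scaled CPM over both groups on the x axis and its log2FC (double knockout over Hmgn1-/-) on the y axis; dashed lines mark a log2FC of 1 in size and DEGs are coloured by group. The 48 higher and 22 lower DEGs stand on a field centred on 0.

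Transcription factors and receptors of the primitive endoderm were higher in the double knockout. Of 13 tested members of this list, 9 were DEGs and all 9 were higher, and the median log2FC was 1.38 beside −0.00 over all genes. Over all genes tested, 0.350% were higher DEGs. This list and those below were written with the study's DEGs and earlier results of these data known, so such counts are descriptive. Gata6, the factor at the head of the primitive endoderm programme, was 10.4, 8.65 and 7.4 CPM in Hmgn1-/- and 25.3, 27.5 and 22.7 CPM in the double knockout. The lowest double knockout library was above the highest Hmgn1-/- library. Its log2FC was 1.51 ± 0.122 (edgeR adjusted p = 1.94e-06). Bulk RNA cannot tell a larger number of cells of a type from more RNA per cell, and this holds for every endoderm gene below.

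Gata4, which acts with GATA6, was 17.2, 16.1 and 14.8 CPM in Hmgn1-/- and 39.2, 36.2 and 34.0 CPM in the double knockout, well apart (log2FC 1.18 ± 0.0887, edgeR adjusted p = 8.82e-07). Sox17, a later endoderm factor, was 4.27, 4.78 and 4.55 CPM against 9.84, 13.9 and 11.7 CPM. The groups again did not overlap, and the log2FC was 1.38 ± 0.144 (edgeR adjusted p = 2.88e-05). Pdgfra, the receptor by which primitive endoderm cells are often sorted, was 9.68, 9.75 and 8.46 CPM in Hmgn1-/- and 25.9, 25.7 and 20 CPM in the double knockout. All 3 double knockout libraries were higher (log2FC 1.36 ± 0.117, edgeR adjusted p = 3.58e-06). The forkhead gene Foxq1 was 6.11, 6.59 and 5.15 CPM against 15.5, 17.5 and 15.8 CPM, likewise separate (log2FC 1.45 ± 0.118, edgeR adjusted p = 1.99e-06).

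Of the other called members of the list, Sox7, Tfec and Klb had a log2FC between 1.28 and 1.91. Sox7, a relative of Sox17, rose from 4.73, 4.06 and 5.01 CPM to 11.8, 10.8 and 11 CPM, and its groups did not overlap. Tfec, a factor of the MiT family, was at a low level, with 0.884, 0.764 and 0.873 CPM in Hmgn1-/- and 2.18, 3.61 and 3.85 CPM in the double knockout (log2FC 1.91 ± 0.270, edgeR adjusted p = 0.000746). The call of Klb, the co-receptor beta-Klotho, was lost without Hmgn1-/- replicate 2 (log2FC 1.35, edgeR adjusted p = 0.0159) and without double knockout replicate 2 (1.35 and 0.0142). Among members that did not pass, Hnf4a had a log2FC of 1.60 at an edgeR adjusted p of 0.0209, Foxa2 0.90 at 0.203, Cited1 0.82 at 0.201 and Eomes −0.04 at 0.97. Hnf4a was called in 2 of 13 alternatives. The list as a whole, in which Gata4 was most abundant, summed to 67.9, 62.3 and 57.0 CPM in Hmgn1-/- and to 151, 157 and 141 CPM in the double knockout. In WT and Hmgn2-/- mESCs its mean sum was 23.6 and 74.3 CPM.

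Some genes of the absorptive surface of the extraembryonic endoderm were also higher. Of 11 tested members of the endocytic list, 3 were DEGs, all higher, and 6 were higher at the adjusted p alone, with a median log2FC of 0.91. Cubn, which encodes the scavenger receptor cubilin, was 44.5, 29.2 and 34.8 CPM in Hmgn1-/- and 119, 115 and 108 CPM in the double knockout. The groups were far apart, although the Hmgn1-/- libraries differed among themselves more than those of the double knockout. The log2FC was 1.65 ± 0.110 (edgeR adjusted p = 2.23e-07).

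Dab2, a clathrin adaptor that serves these receptors, was 28.4, 18.2 and 22.1 CPM in Hmgn1-/- and 73.6, 71.4 and 74.9 CPM in the double knockout. No Hmgn1-/- library came near the double knockout (log2FC 1.67 ± 0.114, edgeR adjusted p = 2.66e-07). Nostrin, a membrane-trafficking gene, was 2.54, 1.86 and 2.11 CPM against 5.96, 5.91 and 4.84 CPM, without overlap (log2FC 1.35 ± 0.174, edgeR adjusted p = 0.000282). Lrp2, the partner receptor megalin, rose by less, from 92.0, 77.2 and 74.2 CPM to 166, 150 and 142 CPM (log2FC 0.91 ± 0.0809, edgeR adjusted p = 5.11e-06). Amn, which anchors cubilin, had a log2FC of 0.93 ± 0.107 (edgeR adjusted p = 8.33e-05), and Ctsl, a lysosomal protease and the most abundant member, 0.38 ± 0.0534 (edgeR adjusted p = 0.000722). Rhox5 had a log2FC of −0.12. The list summed to 351, 309 and 306 CPM in Hmgn1-/- and to 597, 569 and 554 CPM in the double knockout.

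The basement membrane list gave 3 DEGs among 15 tested genes, all higher, 9 higher at the adjusted p alone and a median log2FC of 0.47. Col4a1, a chain of type IV collagen, was 157, 123 and 126 CPM in Hmgn1-/- and 392, 379 and 368 CPM in the double knockout. Every double knockout library held more than every Hmgn1-/- library, and the log2FC was 1.49 ± 0.0787 (edgeR adjusted p = 3.72e-08). Col4a2, its partner chain, was 81.5, 59.1 and 63.4 CPM against 202, 200 and 180 CPM, equally apart (log2FC 1.51 ± 0.0955, edgeR adjusted p = 1.69e-07). P4ha2, a collagen prolyl hydroxylase, was 11.5, 8.31 and 8.73 CPM against 20.8, 21.6 and 22.1 CPM (log2FC 1.17 ± 0.116, edgeR adjusted p = 1.75e-05).

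The laminin chains of the embryonic basement membrane moved by less than the collagens. Lama1 was 203, 179 and 179 CPM in Hmgn1-/- and 353, 350 and 308 CPM in the double knockout, without overlap (log2FC 0.85 ± 0.0670, edgeR adjusted p = 1.42e-06). Lamb1 had a log2FC of 0.65 (edgeR adjusted p = 2.03e-05), and Lamc1, the most abundant member, 0.32 (edgeR adjusted p = 0.00807). Sparc, a collagen-binding glycoprotein, had a log2FC of 0.70 (edgeR adjusted p = 0.000107), and the collagen chaperone Serpinh1 0.52 (edgeR adjusted p = 0.000367). Plod2, a lysyl hydroxylase of collagen, had a log2FC of 0.46 (edgeR adjusted p = 0.00256). The other members did not pass, and 4 of the 15 had a negative log2FC, down to −0.18 for Lama5. The list summed to 2566, 2411 and 2272 CPM in Hmgn1-/- and to 3476, 3440 and 3190 CPM in the double knockout.

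Products of differentiated visceral endoderm gave few calls. The secreted list had 21 members with a row of counts, of which 11 were tested and 1 was a DEG, the median log2FC was −0.04, and Ttr, Alb, Fga, Fgb and Cer1 had no count in any of the 6 libraries. The DEG was Dkk1, a secreted Wnt antagonist, at 2.31, 2.05 and 2.25 CPM in Hmgn1-/- and 5.29, 5.19 and 6.64 CPM in the double knockout (log2FC 1.37 ± 0.167, edgeR adjusted p = 0.000161). The most abundant member, Apoe, did not pass, at 483, 466 and 468 CPM against 420, 436 and 430 CPM (log2FC −0.14, edgeR adjusted p = 0.257). The list summed to 563, 562 and 544 CPM in Hmgn1-/- and to 499, 519 and 513 CPM in the double knockout. Habp2 had a log2FC of 1.30 and just missed the limit, with an edgeR adjusted p of 0.0124, and was called in 3 of 14 alternatives.

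**Figure D2:**
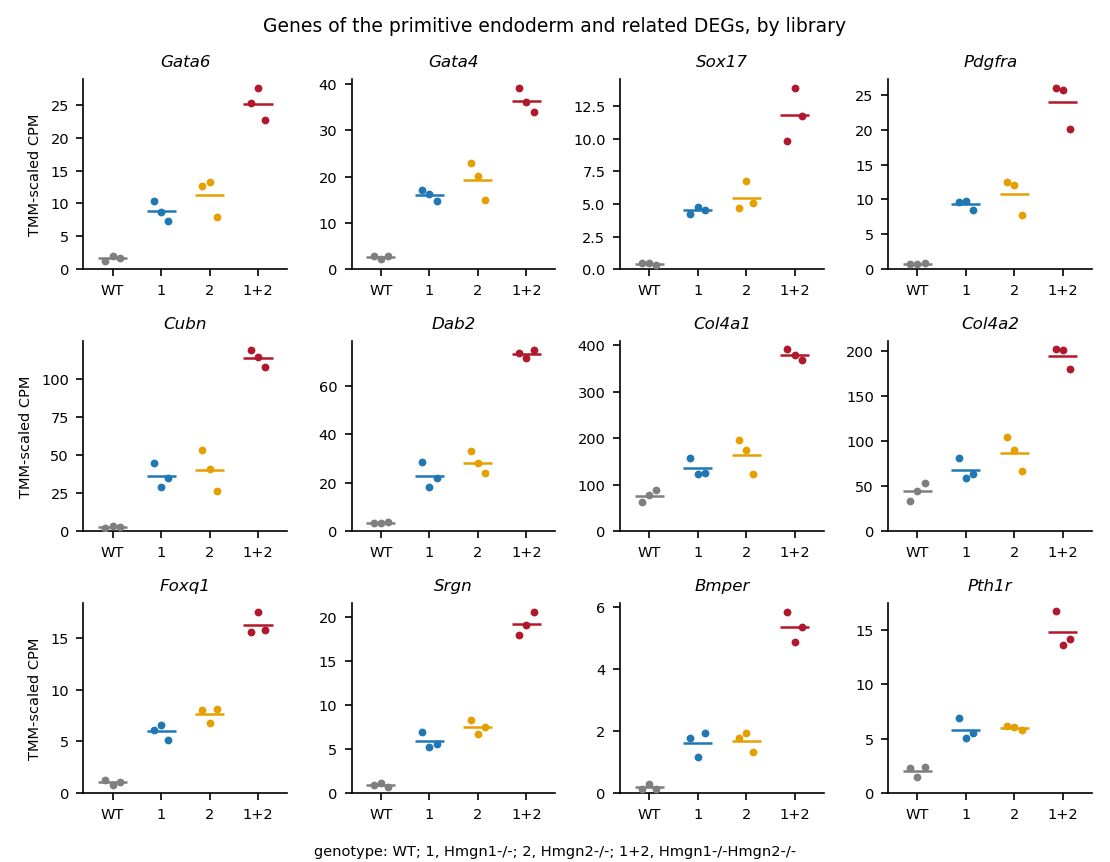
TMM-scaled CPM of 9 DEGs of the endoderm lists and of Srgn, Bmper and Pth1r in each of the 12 libraries, 1 panel per gene, with the 4 genotypes on the x axis, a point per library and a bar at each mean. In each panel the WT mean is lowest, the means of both single knockouts lie between, and the double knockout mean is highest.

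The start regions of these genes were read because their transcripts moved together. A RefSeq promoter of 300 bases (250 before to 50 after the start) was available for 10830 of the tested genes and for 33 of the 48 higher DEGs. Letters of the GATA type were searched on both strands. The forms were AGATAA as well as TGATAA, and AGATAG as well as TGATAG. At least 1 form was present in 9 of those 33 promoters (27.3%), in 3 of 10 promoters of higher DEGs of the endoderm lists, in 5 of 17 promoters of lower DEGs (29.4%), in 17.8% of the promoters of tested genes and in 29.8% of all 32851 promoters in the table. The Dab2 promoter (chr15:6299539-6299838, plus strand, GRCm38.p6) held 2 matches, in capitals. The Col4a2 window (chr8:11312555-11312854, plus strand) held none, and it overlaps the window of Col4a1, which is read from the opposite strand and starts beside it. Both are printed to show a promoter with the letters and one without, and a match describes letters and no binding site.
Dab2 promoter: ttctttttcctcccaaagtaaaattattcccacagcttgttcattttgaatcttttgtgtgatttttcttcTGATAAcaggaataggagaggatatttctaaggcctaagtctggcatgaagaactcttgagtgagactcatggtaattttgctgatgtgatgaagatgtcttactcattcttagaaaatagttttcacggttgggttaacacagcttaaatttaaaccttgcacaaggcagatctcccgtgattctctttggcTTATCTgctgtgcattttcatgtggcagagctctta
Col4a2 promoter: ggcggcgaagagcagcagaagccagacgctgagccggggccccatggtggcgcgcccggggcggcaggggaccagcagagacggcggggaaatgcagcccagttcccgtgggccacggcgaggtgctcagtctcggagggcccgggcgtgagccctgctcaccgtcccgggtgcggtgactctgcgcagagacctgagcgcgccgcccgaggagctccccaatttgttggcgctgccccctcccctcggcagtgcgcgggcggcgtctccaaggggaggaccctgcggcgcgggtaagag

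Of the 48 higher DEGs, 41 had an Hmgn2-/- level nearer to Hmgn1-/- than to the double knockout. All 3 double knockout libraries were above all 6 single knockout libraries for 41 of the 48, and above all 9 other libraries for 31. The 48 were picked as higher than Hmgn1-/-, and no share over all tested genes is given for these counts. By group means, among the 41 whose Hmgn2-/- level was nearer Hmgn1-/-, 26 were lowest in WT and highest in the double knockout. Another 8 were highest in WT and 7 were neither. Single libraries could overlap, as for P4ha2, 1 of the 26, at 9.87, 8.34 and 7.30 CPM in WT and 11.5, 8.31 and 8.73 CPM in Hmgn1-/-. The 26 included all 16 higher DEGs of the endoderm lists and also Srgn, Bmper, Dram1 and Pth1r. Srgn, a secretory-granule proteoglycan gene, was 6.88, 5.16 and 5.51 CPM in Hmgn1-/- and 18, 19.1 and 20.6 CPM in the double knockout, wholly apart, and its mean was 0.887 CPM in WT and 7.46 CPM in Hmgn2-/- mESCs (log2FC 1.70 ± 0.120, edgeR adjusted p = 4.39e-07). Bmper, a BMP-binding protein, was 1.77, 1.15 and 1.93 CPM against 5.83, 4.88 and 5.34 CPM, with means of 0.181 CPM in WT and 1.67 CPM in Hmgn2-/- mESCs (log2FC 1.72 ± 0.194, edgeR adjusted p = 6.51e-05). Dram1, a lysosomal membrane gene, was 1.19, 1.05 and 1.15 CPM against 3.20, 3.43 and 3.20 CPM (log2FC 1.53 ± 0.202, edgeR adjusted p = 0.000367). None of these genes had overlapping groups. Pth1r, a hormone receptor of parietal endoderm that was chosen after its values were seen, was 6.92, 5.06 and 5.47 CPM against 16.7, 13.6 and 14.2 CPM (log2FC 1.34 ± 0.134, edgeR adjusted p = 1.84e-05).

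The double knockout was also set against its parent line, Hmgn2-/-, a comparison chosen after seeing the data that shares the double knockout libraries with the one above. Of 13816 genes tested by edgeR, 6 were DEGs (0.0434%), and 613 had an unadjusted p under 0.05. The 6 were Hmgn1 (log2FC −4.79), Srgn (1.36), Dab2 (1.36), Pth1r (1.30), Foxq1 (1.09) and Bmper (1.65), of which the last 5 were higher in the double knockout. DESeq2 called 29. Leaving out single libraries moved the count to 3 without double knockout replicate 1, to 1 without double knockout replicate 2, double knockout replicate 3 or Hmgn2-/- replicate 2, to 9 without Hmgn2-/- replicate 3 and to 12 without Hmgn2-/- replicate 1. Under 10 alternatives, these 6 omissions and 4 other settings, Hmgn1 was called in 10, Srgn and Dab2 in 7, Pth1r in 6, and Foxq1 and Bmper in 5. Col4a1 had a log2FC of 1.2 (edgeR adjusted p = 0.0156), Cubn 1.49 (edgeR adjusted p = 0.0229) and Gata6 1.14 (edgeR adjusted p = 0.041), short of the limit.

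Some genes of the 2-cell-like state, a rare condition of ESCs, were higher in the double knockout but at low counts. Of 10 tested members, 5 were DEGs, all higher, with a median log2FC of 2.17. Zscan4c, of a family of telomere-associated factors, was 0.384, 0.669 and 0.322 CPM in Hmgn1-/- and 2.31, 1.72 and 1.68 CPM in the double knockout. Every double knockout library was higher, and the log2FC was 2.07 ± 0.323 (edgeR adjusted p = 0.00192). Zscan4a was 0.192, 0.573 and 0.414 CPM against 2.05, 2.21 and 1.33 CPM (log2FC 2.27 ± 0.368, edgeR adjusted p = 0.00264). Zscan4d, Zscan4f and Gm5662 had a log2FC of 2.42, 1.88 and 2.81. The copies of Zscan4 are nearly identical and can share reads, so that each value is uncertain and the 4 Zscan4 calls, all on chromosome 7, are 1 observation rather than 4. Gm5662 lies on chromosome 12. In WT the means were 7.08 CPM for Zscan4c and 6.41 CPM for Zscan4a, above both lines, and in Hmgn2-/- mESCs they were 0.443 and 0.293 CPM.

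These calls rested on few counts. Without Hmgn1-/- replicate 1, calls were lost for Zscan4a (edgeR adjusted p = 0.0163), Zscan4c (0.0138), Zscan4d (0.0210) and Gm5662 (0.0143). Without Hmgn1-/- replicate 2 those of Zscan4d (0.0372) and Zscan4f (0.0302) were lost, and likewise without Hmgn1-/- replicate 3 (0.0186 and 0.0154). Without double knockout replicate 1 Zscan4d was lost (0.0297), and without double knockout replicate 2 Zscan4a (0.02), Zscan4d (0.0471) and Zscan4f (0.0288) were lost. The list summed to 5.96, 5.02 and 3.91 CPM in Hmgn1-/- and to 21.1, 19.2 and 13.4 CPM in the double knockout, without overlap, beside a mean of 63.2 CPM in WT and 5.43 CPM in Hmgn2-/- mESCs. Zscan4e (log2FC 2.80, edgeR adjusted p = 0.0108) and Usp17lb (2.68 and 0.0282) did not pass, but Zscan4e was called in 7 of 13 alternatives, DESeq2 among them, and Usp17lb in 2 of 13. Cryab, a small heat shock protein gene and the only called member of the heat shock list, also had its highest mean in WT. Its WT libraries were at 5.62, 7.89 and 13.7 CPM. It was 2.38, 2.10 and 3.49 CPM in Hmgn1-/- and 6.60, 6.37 and 7.63 CPM in the double knockout (log2FC 1.37 ± 0.180, edgeR adjusted p = 0.000345).

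Some imprinted genes, which are transcribed from the allele of 1 parent, were DEGs, in both directions. Of 37 tested, 2 were higher and 3 lower as DEGs, and the median log2FC was 0.06. Grb10 (chr11:11930499-12037428), a growth-restricting adaptor, was 394, 407 and 409 CPM in Hmgn1-/- and 44.6, 38.9 and 40.8 CPM in the double knockout. The libraries of the 2 lines differed roughly as those of WT and Hmgn2-/- did, whose means were 319 and 34.6 CPM. Its log2FC was −3.28 ± 0.0620 (edgeR adjusted p = 8.49e-14), beside −3.20 for Hmgn2-/- against WT.

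Nnat (chr2:157560078-157562525), a small membrane proteolipid gene, was 1.08, 1.10 and 2.11 CPM in Hmgn1-/- and 12.9, 11.6 and 10.9 CPM in the double knockout. Here Hmgn1-/- was the line that stood apart, since the means were 11.4 CPM in WT and 14.3 CPM in Hmgn2-/- mESCs. The log2FC was 3.06 ± 0.198 (edgeR adjusted p = 1.92e-07). Peg10 (chr6:4747306-4760517), a retrotransposon-derived gene, was 229, 219 and 213 CPM against 597, 573 and 495 CPM (log2FC 1.33 ± 0.0673, edgeR adjusted p = 2.43e-08). Hmgn1-/- was again the lowest line, with means of 409 CPM in WT (262, 447 and 518 CPM) and 471 CPM in Hmgn2-/- mESCs. Its neighbour Sgce had a log2FC of 0.89 and did not pass (edgeR adjusted p = 0.0147).

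At low counts, Peg13 (chr15:72805602-72810324), a non-coding RNA, gave 280 counts over the Hmgn1-/- libraries and 4 over the double knockout, a ratio of 81.1 with a 95% counting interval of 31.3 to 300. Its mean was 2.32 CPM in WT and 0.0326 CPM in Hmgn2-/- mESCs. Nap1l5 (chr6:58905233-58907126), a nucleosome assembly relative, gave 45 counts in Hmgn1-/- and 3 in the double knockout, a ratio of 17.4 with an interval of 5.58 to 87.4. Both were lower in each double knockout library than in any Hmgn1-/- library. The call of Nap1l5 was lost without Hmgn1-/- replicate 2 (edgeR adjusted p = 0.0157), double knockout replicate 1 (0.0113) or double knockout replicate 2 (0.0132). At the adjusted p alone, Zrsr1 (log2FC 0.89, edgeR adjusted p = 3.21e-05), Mcts2 (0.88 and 1.04e-05) and Zdbf2 (0.70 and 1.65e-05) were higher. For Zdbf2 the levels were 113, 100 and 101 CPM against 185, 169 and 158 CPM, without overlap.

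**Figure D3:**
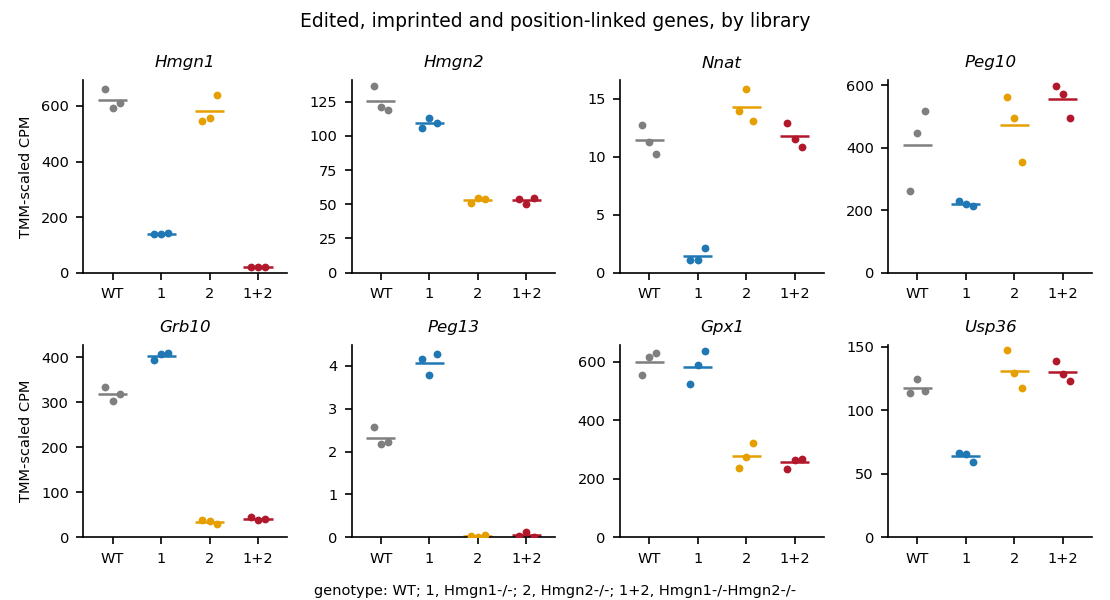
TMM-scaled CPM of Hmgn1, Hmgn2, Nnat, Peg10, Grb10, Peg13, Gpx1 and Usp36 in each of the 12 libraries, with the 4 genotypes on the x axis, a point per library and a bar at each mean. Grb10, Peg13 and Gpx1 are low in both lines with the Hmgn2 edit, whereas Nnat, Peg10 and Usp36 are low in Hmgn1-/- alone.

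A run of 36 tested neighbours on chromosome 9, from Cacna2d2 to Usp4 (chr9:107399733-108392545, 993 kb), had a negative log2FC at every gene. The stretch was chosen after its values were seen and was not tested as a unit, and whether the lines differ in DNA copies there, or in the stretches of chromosome 11 below, was not tested. The log2FC ran from −2.30 to −0.19 with a median of −0.99, and 13 genes were DEGs and 27 lower at the adjusted p alone. Gpx1, the cytosolic glutathione peroxidase, was 523, 588 and 638 CPM in Hmgn1-/- and 235, 264 and 269 CPM in the double knockout. No library of one line reached the range of the other (log2FC −1.19 ± 0.0722, edgeR adjusted p = 1.18e-07). Gnai2, an inhibitory G-protein subunit, was 304, 318 and 325 CPM against 144, 143 and 148 CPM (log2FC −1.12 ± 0.0512, edgeR adjusted p = 7.72e-09). Slc38a3, a glutamine transporter, was 8.88, 8.36 and 7.63 CPM against 1.38, 2.21 and 1.56 CPM (log2FC −2.30 ± 0.177, edgeR adjusted p = 1.08e-06). Both were separate between lines.

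Summed over the stretch, levels were 2300, 2380 and 2431 CPM in Hmgn1-/- and 1150, 1171 and 1164 CPM in the double knockout, or 49.0% of Hmgn1-/- by the means. In WT the mean sum was 2282 CPM and in Hmgn2-/- mESCs 1180 CPM, 51.7% of WT. All 36 genes were also lower in Hmgn2-/- than in WT (median log2FC −0.92), comparisons that share no library with the one above. Against Hmgn2-/-, 35 of the genes were tested in the double knockout, with a median of −0.02, and 0 were called by edgeR or DESeq2 and 0 had an unadjusted p under 0.05. Among neighbours averaging 50 counts or more, the 10 before it, Rrp9 to Hemk1, had a median log2FC of 0.06 (−0.29 to 0.35), and the 10 after it, Ccdc36 to Dalrd3, −0.05 (−0.39 to 0.04). The tested gene next to Usp4, 1700102P08Rik, averaged 17.8 counts and had a log2FC of −0.86 ± 0.362 that did not pass (edgeR adjusted p = 0.428), so that the edge on this side is not placed to the gene. The gene next to Cacna2d2, 6430571L13Rik, averaged 11.2 counts and had a log2FC of 0.09 ± 0.396. Some calls within it turned on a single library. Cacna2d2 was not called without Hmgn1-/- replicate 1 (log2FC −1.22, edgeR adjusted p = 0.02), Hmgn1-/- replicate 3 (−1.15 and 0.0127) or double knockout replicate 1 (0.0105), Ip6k1 not without double knockout replicate 3 (−0.98) and Nprl2 not without Hmgn1-/- replicate 3 (−0.99). Hyal1 and Nat6 overlap, and the strand used in counting is not given, so their reads may be shared.

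**Figure D4:**
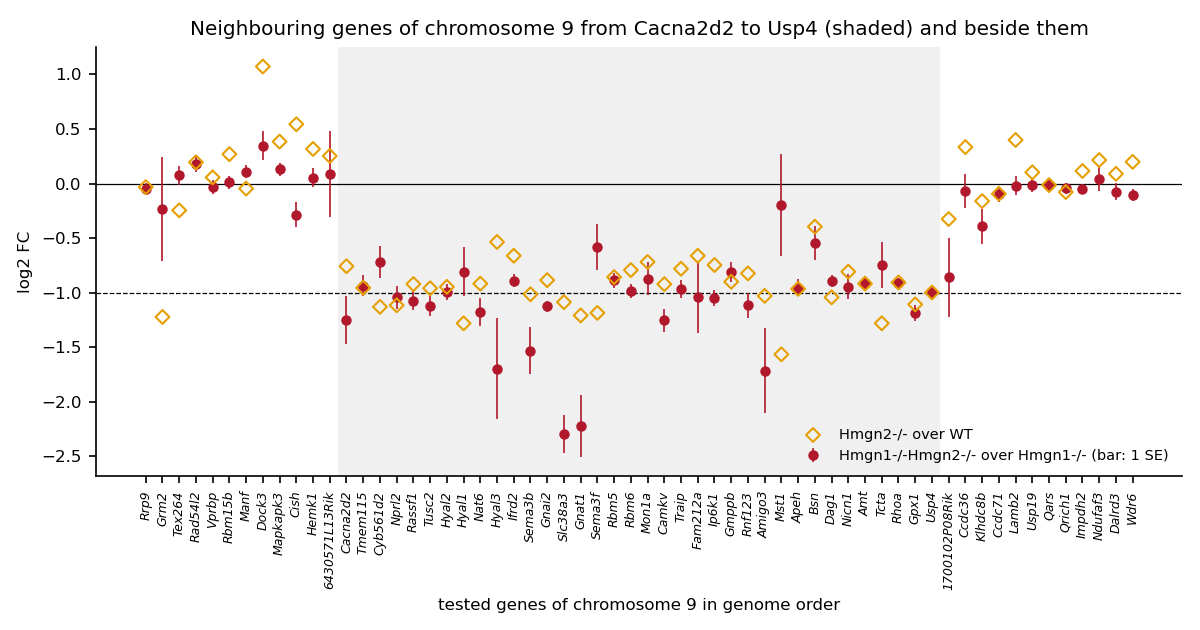
Log2FC of tested chromosome 9 genes in gene order (x axis), with the run from Cacna2d2 to Usp4 shaded; filled points are the double knockout over Hmgn1-/- with a bar of 1 SE, and open diamonds are Hmgn2-/- over WT. Within the shading all points of both comparisons lie below 0, with medians of −0.99 and −0.92, and outside it most lie around 0.

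Chromosome 11 held 2 shorter runs, also chosen after their values were seen. From 2900041M22Rik to Tha1 (chr11:117611247-117873526, 262 kb) all 9 tested genes were lower, with a median log2FC of −0.92, 2 DEGs and 7 lower at the adjusted p alone. Birc5, the mitotic regulator survivin, was 147, 139 and 156 CPM in Hmgn1-/- and 68.9, 77.7 and 72.4 CPM in the double knockout, wholly apart (log2FC −1.01 ± 0.0650, edgeR adjusted p = 1.79e-07). Its fold was under the limit without Hmgn1-/- replicate 3 (−0.97) or double knockout replicate 1 (−0.97). The other DEG, 2900041M22Rik, had a log2FC of −1.18 (edgeR adjusted p = 0.00748) and lost its call without Hmgn1-/- replicate 1 (0.0114), 2 (0.0373) or 3 (0.0263) and without double knockout replicate 1 (0.0279) or 3 (0.0190). The sums were 431, 431 and 427 CPM against 217, 242 and 225 CPM, or 53.1% of Hmgn1-/-. In WT the mean sum was 419 CPM and in Hmgn2-/- mESCs 231 CPM, 55.0% of WT. Against Hmgn2-/-, the 9 genes had a median log2FC of −0.02 in the double knockout, and 0 were called by edgeR or DESeq2.

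Farther along, from Cyth1 to Rbfox3 (chr11:118164170-118911597, 747 kb), all 7 tested genes were higher, with a median log2FC of 0.83, 2 DEGs and 4 higher at the adjusted p alone. Usp36, a nucleolar deubiquitinase gene, was 66.7, 65.7 and 59.2 CPM in Hmgn1-/- and 139, 129 and 123 CPM in the double knockout (log2FC 1.03 ± 0.0673, edgeR adjusted p = 2.05e-07). Its groups were apart, but its fold was under the limit without Hmgn1-/- replicate 3 (0.97) or double knockout replicate 1 (0.98). C1qtnf1, a secreted C1q-related protein, gave 1, 0 and 1 counts in Hmgn1-/- and 45, 34 and 45 in the double knockout, a ratio of 53.5 with a counting interval of 14.5 to 447. Summed over the run, levels were 107, 104 and 99.3 CPM in Hmgn1-/- and 211, 198 and 198 CPM in the double knockout. This was 195% of Hmgn1-/-, and Hmgn1-/- itself was at 53.6% of WT. Medians over whole autosomes lay between −0.02 for chromosome 17 and 0.01 for chromosome 1.

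Of 473 tested genes of the X chromosome, 5 were higher DEGs and 1 was lower. Chromosome 7 gave as many as 6 higher DEGs of 1108 tested, the near-identical Zscan4 copies among them. Chromosome 11 gave 5 of 1152 and chromosome 9 gave 5 of 786. Dock11 (chrX:35887271-36076570), a regulator of the GTPase CDC42, was 1.96, 1.96 and 1.98 CPM in Hmgn1-/- and 15.5, 11.6 and 12.1 CPM in the double knockout. Hmgn1-/- was the line that differed, as the means were 19.4 CPM in WT and 12.5 CPM in Hmgn2-/- mESCs (log2FC 2.74 ± 0.157, edgeR adjusted p = 6.25e-08). Fmr1nb, a testis-antigen gene, had the same order, at 2.46, 1.82 and 2.57 CPM against 4.90, 7.68 and 7.28 CPM, with a WT mean of 16.5 CPM (log2FC 1.52 ± 0.202, edgeR adjusted p = 0.000387). Klhl13, an adaptor of a ubiquitin ligase and the lower gene, was 45.2, 57.9 and 56.1 CPM against 16.4, 18.7 and 18.8 CPM, all below the WT mean of 265 CPM (log2FC −1.56 ± 0.0992, edgeR adjusted p = 1.69e-07). In Hmgn2-/- mESCs its mean was 26.9 CPM.

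Erdr1, at the end of the chromosome, was 194, 204 and 186 CPM in Hmgn1-/- and 424, 422 and 384 CPM in the double knockout, close to the mean of 434 CPM in Hmgn2-/- mESCs (log2FC 1.07 ± 0.0582, edgeR adjusted p = 4.33e-08). Stard8, a GTPase-activating gene, was 3.61, 4.54 and 3.63 CPM against 10.0, 13.5 and 10.4 CPM and had its highest level in the double knockout (log2FC 1.52 ± 0.153, edgeR adjusted p = 1.98e-05). Amot, a Hippo pathway adaptor named after its values were seen, had a log2FC of 1.25. None of these genes placed on the X chromosome had overlapping groups. Among autosomal genes in none of the lists, 9930013L23Rik was 0.884, 1.19 and 1.19 CPM against 3.94, 3.12 and 2.75 CPM (log2FC 1.60 ± 0.232, edgeR adjusted p = 0.000967). The peptide transporter gene Slc15a2 (chr16:36750161-36785158) was lower, at 3.34, 2.82 and 2.21 CPM against 0.929, 0.813 and 0.572 CPM (log2FC −1.85 ± 0.262, edgeR adjusted p = 0.000780).

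Lists of other lineages and pathways held few DEGs. They do not hold every gene of a pathway, and Bmp6, a BMP gene outside them, was a higher DEG. It was named after its values were seen (log2FC 1.00, edgeR adjusted p = 0.000431), and its call was lost without some single libraries. Apart from genes named as DEGs here, neither edgeR nor DESeq2 called any member of these lists. The number with an unadjusted p under 0.05 is given beside each, against 9.53% of all genes tested. That share was 46.7% in the Wnt target list, 44.4% in the germline list and 43.8% in the smooth muscle list. Among lineage lists the median log2FC was −0.06 over 18 formative and primed pluripotency genes (6 under 0.05), 0.08 over 16 primitive streak and mesoderm genes (3), −0.11 over 14 neural genes (4), 0.20 over 14 keratin and trophoblast genes (3), −0.07 over 16 smooth muscle genes (7) and 0.23 over 18 germline genes (8). Among signalling lists it was 0.06 over 18 FGF and ERK feedback genes (2), 0.10 over 15 Wnt target genes (7, Dkk1 the DEG), 0.03 over 19 Nodal and BMP genes (4, Bmper the DEG), −0.08 over 14 LIF and STAT3 genes (3) and 0.07 over 13 YAP target genes (3).

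Chromatin genes, through which HMGN proteins are often studied, had medians of −0.01 over 13 DNA methylation genes (3 under 0.05, Dppa3 among them), 0.03 over 27 polycomb genes (1), −0.00 over 30 histone acetylation and H2A.Z genes (3), −0.03 over 7 linker histone genes (0) and −0.09 over 41 core histone genes (5). Stress and immune lists had medians of 0.07 over 20 p53 target genes (5), 0.03 over 15 heat shock genes (2, Cryab the DEG), −0.16 over 23 interferon genes (4) and 0.09 over 16 antigen presentation genes (3).

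Markers of cells that could have been carried into the cultures did not separate the lines. Fibroblast markers had 6 tested members and a median log2FC of 0.11, with Fn1 the most abundant, and Lum had no count. Neither edgeR nor DESeq2 called any, and 1 had an unadjusted p under 0.05. They summed to 611, 685 and 475 CPM in Hmgn1-/- and to 516, 460 and 410 CPM in the double knockout, which overlapped. Macrophage markers had 3 tested members and a median of −0.17, with Cd68 the most abundant and 0 under an unadjusted p of 0.05, and Tyrobp, C1qb and Cx3cr1 had no count in any of the 6 libraries.

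The Hmgn2-/- line was also compared with WT mESCs, both with HMGN1 present, in 6 libraries that are not among those above. The Hmgn2 edit and the growth of the line from 1 cell cannot be told apart there either. There 724 of 14047 tested genes were DEGs (5.15%), 109 higher and 615 lower. Across 13601 genes tested in both, the log2FC of the 2 comparisons had a Pearson r of 0.0474 and a Spearman rank correlation of 0.0044, and 49.5% had the same sign, a description in which genes are not independent. Of the 70 DEGs, 52 had the same sign with HMGN1 present, 31 of the 48 higher and 21 of the 22 lower. Of the higher ones 21 were called higher and 9 called lower in Hmgn2-/- against WT, and of the lower ones 10 were called lower. The remaining gene of opposite sign among the lower DEGs, Slc15a2, was not called there (log2FC 0.74, edgeR adjusted p = 0.172).

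**Figure D5:**
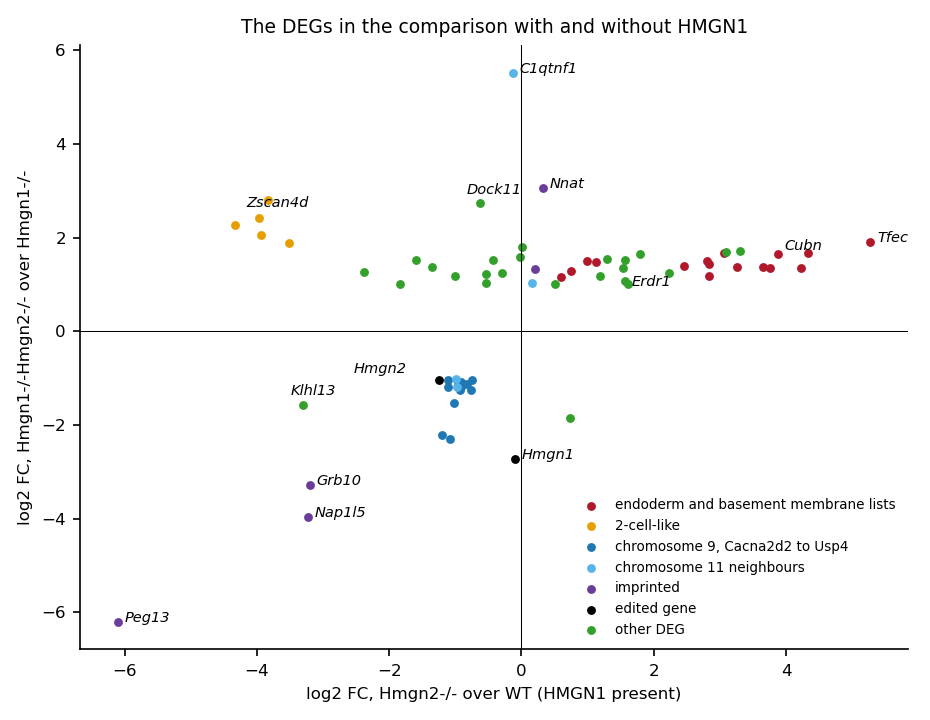
For the 70 DEGs, the log2FC of Hmgn2-/- over WT (x axis) is set against the log2FC of the double knockout over Hmgn1-/- (y axis), coloured by group. Endoderm genes lie at the upper right, 2-cell-like genes at the upper left and the chromosome 9 genes at the lower left.

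The difference between both log2FC was tested over all 12 libraries as an interaction, in which the 6 libraries above take part. Absence of HMGN1 is taken from the genotype label, and the protein was not measured here. Hmgn1 transcript also differed between Hmgn1-/- and the double knockout, as given above. It was called for 499 of 14323 genes (3.48%), 427 positive and 72 negative, and for 34 of the 70 DEGs. Of 50 tested members of the 4 endoderm lists, 21 had a negative and 29 a positive difference, and 11 negative and 3 positive ones were called. All 11 were among the 16 higher DEGs of these lists. On the CPM scale each of the 16 rose by more without HMGN1 than with it, by a gap under 2 SE for 3. These 16 were picked as higher in the comparison without HMGN1, a choice that favours a larger rise there. The log2FC of Cubn was 1.65 without HMGN1 and 3.88 with it (difference −2.24, edgeR adjusted p = 0.000224). For Gata4 it was 1.18 against 2.83 (difference −1.64, edgeR adjusted p = 0.000100), and for Sox17 1.38 against 3.66 (difference −2.27, edgeR adjusted p = 0.000172). The higher DEGs with positive differences were Col4a1, Sox7, Col4a2 and P4ha2, from 0.38 for Col4a1 (edgeR adjusted p = 0.277) to 0.58 for P4ha2 (edgeR adjusted p = 0.0457), and none was called. The 3 positive calls were for members that were not DEGs. They were Slc39a8, a metal ion transporter gene named after its values were seen (difference 3.36, edgeR adjusted p = 2.64e-05), Sparc (1.49 and 0.0001) and Rhox5 (1.28 and 0.000209), each with a negative log2FC in Hmgn2-/- against WT. For Grb10 the difference was −0.08 (edgeR adjusted p = 0.739). Of the 36 chromosome 9 genes 0 were called by edgeR and 1 by DESeq2, 6 had an unadjusted p under 0.05, and the median difference was −0.14.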

How the data were processed

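The authors deposited whole-number counts of reads per gene for 23412 genes in each library. The submitters' processing notes name STAR, DESeq2 and mm10, and neither the counting program nor its strand setting is given. From these counts, genes were filtered with filterByExpr, scaled by TMM and tested with the quasi-likelihood test of edgeR 4.0.16 (R 4.3.3, limma 3.58.1), with Benjamini-Hochberg adjustment over all genes tested. Each comparison of 2 lines was fitted on its own 6 libraries, and the interaction on all 12. The steps were tested on simulated data. DESeq2 1.42.0, other scalings, filters and thresholds, thinned counts, a replicate block and the omission of each library were alternatives. The comparison with the parent line and the alternatives for genes named by the interaction were chosen after seeing the data. A named gene is not reported here. Gene positions came from RefSeq GRCm38.p6 (21563 genes matched by symbol and 1713 by synonym), exons from GENCODE vM21 and promoters from RefSeq. Members and gene lists were chosen with the study's own DEGs and earlier results of these data known. Genes were named by a rule: among DEGs averaging 50 counts or more, the 15 largest rises and the 15 largest falls, the HMG list, DEGs of the lists, up to 4 members of each list with the largest log2FC, and for the interaction the 5 largest differences of each sign. Other genes were named after their values were seen.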

Additional observations from a re-analysis of the deposited data

Results flagged for a closer look

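For 38 of the genes named here, the log2FC of the double knockout over Hmgn1-/- differed from that of Hmgn2-/- over WT in the interaction test of edgeR over all 12 libraries. The values below are the former minus the latter, and line and genotype cannot be told apart in either. Among DEGs of the endoderm lists the differences that passed were negative: the log2FC was smaller, though the rise in CPM larger, without HMGN1. They were −3.35 for Tfec, −2.87 for Nostrin, −2.39 for Pdgfra, −2.27 for Sox17, −2.24 for Cubn and −1.88 for Dkk1. For Gata4, Dab2, Foxq1 and Gata6 they were −1.64, −1.39, −1.38 and −1.303, and for Srgn, in none of the lists, −1.38. In WT Tfec had a mean of 0.0208 CPM and Nostrin 0.123 CPM, at or under the level of a few counts per library, so that the size of their differences is uncertain. All of these genes were higher in the double knockout than in Hmgn1-/- and higher in Hmgn2-/- than in WT mESCs. Members of the endoderm lists that were not DEGs passed with positive differences, 3.36 for Slc39a8, 1.485 for Sparc and 1.275 for Rhox5.

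Genes of the 2-cell-like list had large positive differences, because they were lower in Hmgn2-/- than in WT and higher in the double knockout than in Hmgn1-/-. The differences were 6.66 for Gm5662, 6.62 for Zscan4a, 6.39 for Zscan4d, 6.02 for Zscan4c and 5.41 for Zscan4f, all on low counts, with the Zscan4 genes near-identical copies. For Usp17lb and Zscan4e, which were not DEGs, they were 6.61 and 6.43. Cryab had the same pattern with a difference of 2.73. Pnma5 (4.50) and Gbp2 (3.94) did not pass in the double knockout against Hmgn1-/-. Gbp2 had a mean of 11.7 CPM in WT and 0.516 CPM in Hmgn2-/- mESCs, and Pnma5 27.2 and 1.53 CPM.

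Differences of other DEGs were 3.37 for Dock11, 3.12 for Fmr1nb, 2.73 for Nnat, 1.95 for Stard8, 1.74 for Klhl13, 1.61 for 9930013L23Rik, 1.555 for Amot and −2.58 for Slc15a2. The difference for C1qtnf1 was 5.66, on 1, 0 and 1 counts in Hmgn1-/-. For Dock11, Fmr1nb and Nnat the lowest of the 4 lines was Hmgn1-/-. For Hmgn1 itself the difference was −2.63. Among genes that were not DEGs, differences were 3.57 for Eif2s3y, 2.17 for Hmga2, 1.545 for Cd68 and 1.33 for Tap1.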

How the results depend on the processing

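The 70 DEGs numbered 78 by DESeq2, 71 and 72 under other scalings, 95 with no count filter, 63 with at least 10 counts, 68 in a fit of 12 libraries, 76 on thinned counts and 96 at an adjusted p of 0.05. Over the 14 refits 56 to 70 of them kept their call (61 of 61 tested with at least 10 counts), and 0 changed sign. Without a fold limit there were 150 (91 higher, 59 lower), and 13 (8 higher, 5 lower) when edgeR tested against a log2FC of 1. Leaving out single libraries gave 57 to 72 DEGs, 35 to 51 higher and 20 to 24 lower, with Hmgn1 at −2.75 to −2.70 and Hmgn2 at −1.08 to −1.02. The corresponding counts were 500 to 771 for Hmgn2-/- against WT, 369 to 591 for the interaction and 1 to 12 for the parental comparison. Without a fold limit they were 1400, 905 and 6, and DESeq2 gave 29 in the parental comparison.

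Whether replicate numbers pair the libraries is not given by the labels, and the main fits used no block. Deviations of same-numbered libraries had correlations of 0.179, 0.048 and 0.236, the highest for each double knockout library. Other pairs lay between −0.225 and 0.0503. Hmgn1-/- replicate 2 was no closer to its own number than to double knockout replicate 1. With the replicate number as a block there were 95 DEGs, 70 higher and 25 lower, and 32 in the parental comparison.

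Among named genes signs changed for 11 that were not called, and the cause was not tested. Leaving out single libraries gave a log2FC of −0.0412 to 0.112 for Hmgn5, −0.0509 to 0.0429 for Hmgb1, −0.0659 to 0.0196 for Hmgb2, −0.0992 to 0.00238 for Hmgb3, −0.0728 to 0.232 for Hmga1 and −0.0185 to 0.165 for Tet3. It was −0.652 to 0.363 for Hist1h1b, −0.224 to 0.0214 for Hist1h1c, −0.237 to 0.319 for Hist1h1a, −0.851 to 0.35 for Ier3 and −0.765 to 0.0511 for Itgam. With upper quartile scaling Hmgb1 was at 0.00065. Hnf4a, Habp2, Zscan4e and Usp17lb gained a call in 14 values, 31 were lost and 2010 of 2074 stayed on their side. The 2-cell-like DEGs numbered 0 with at least 10 counts in every library, where 1 was tested, 1 to 7 without single libraries and 9 with the block, and Cryab, Zscan4d and Zscan4f lost their call in the fit of 12 libraries (edgeR adjusted p = 0.0174, 0.0169 and 0.0208).

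Each edited genotype is a single clone, so differences of line and of genotype cannot be told apart. Genes under about 0.1 CPM in both groups could not be compared. The strand of counting is unknown, and overlapping genes and near-identical copies can share reads. Promoters covered 10830 tested genes, and the guide bases beyond the exons were not read.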

Other observations

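On the linear scale the order of the changes in both comparisons was the reverse of that on the log scale for most DEGs of the endoderm lists. For each of these 16 DEGs, which were called in the comparison without HMGN1, the rise in CPM from Hmgn1-/- to the double knockout was larger than the rise from WT to Hmgn2-/- mESCs, while for 12 of them the difference of log2FC was negative. Cubn rose by 77.6 ± 5.50 CPM without HMGN1 and by 37.5 ± 7.75 CPM with it (SE, n = 3 per line). Dab2 rose by 50.4 ± 3.13 CPM against 25 ± 2.66 CPM, and Gata6 by 16.4 ± 1.65 CPM against 9.62 ± 1.70 CPM. For Col4a1 the rises were 245 ± 12.9 and 88.8 ± 22.9 CPM. The gap between the rises was within 2 SE for 3 of the 16, at 3.76 ± 2.89 CPM for Gata4, 2.23 ± 1.33 CPM for Sox17 and 4.62 ± 2.50 CPM for Pdgfra, and it was not tested. The choice of genes called without HMGN1 favours larger rises there. Starting levels differ, since Hmgn1-/- libraries already held more of these transcripts than WT.

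Among the 150 genes that passed at the adjusted p alone were some members of lists that held no DEG. Tap1, the peptide transporter of antigen presentation, had a log2FC of 0.77 (edgeR adjusted p = 0.00600). Ifitm1, an interferon-induced membrane gene, had a log2FC of −0.57 (edgeR adjusted p = 0.00929). In the germline list 15 of 18 tested genes had a positive log2FC, with Tex11, a meiotic gene, at 0.55 (edgeR adjusted p = 0.00903).

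Hmga2, a further chromatin protein of the HMG list, was 5.61, 6.69 and 6.62 CPM in Hmgn1-/- and 7.43, 8.67 and 7.70 CPM in the double knockout, beside a mean of 26.8 CPM in WT. All 6 libraries were far below WT, and the lines did not differ by the test (log2FC 0.33, edgeR adjusted p = 0.356).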
